A study of Mus musculus with 9 samples.

Results

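The cytosolic ribosomal protein genes were followed across RNA-seq libraries of the newborn mouse eye with and without a Col4a1 mutation. Members were taken by annotation alone: rows of the count table whose mouse gene is protein coding in the GRCm38 annotation and whose symbol begins with Rpl or Rps and a digit, or is Rplp0, Rplp1, Rplp2 or Rpsa, without Rps6 kinases and pseudogenes. The rule took 86 of 35275 rows, of which 52 carry a large subunit symbol and 34 a small subunit symbol. It includes 8 rows for duplicate genes that resemble another member (Rpl3l, Rpl7l1, Rpl10l, Rpl22l1, Rpl36al, Rpl39l, Rps27l and Rps27rt) and Rps19bp1, whose product binds the Rps19 protein and is no subunit. It leaves out genes such as Fau and Rack1, whose products also sit on the ribosome.

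Tissue was the anterior segment at postnatal day 0, that is, cornea, iris, ciliary body and drainage tissue with the lens removed. The 3 wildtype libraries (Col4a1+/+) and the 6 mutant libraries (Col4a1+/G1344D) each came from a pool of 4 eyes of 2 mice. Mutants carried 1 copy of a missense allele in the alpha 1 chain of type IV collagen, a basement membrane protein. Strain, litter and handling day are not given in the labels, and the p-values rest on the variation among these pools alone.

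The cytosolic ribosome has a small subunit, which reads the messenger RNA, and a large subunit, which joins the amino acids. Both are built from ribosomal RNA and a nearly fixed set of proteins, each needed in matched amounts. In mammals most of these proteins are encoded by short, very abundant messages. Many start with a 5′ terminal oligopyrimidine (TOP) tract, a cytosine followed by a run of pyrimidines, through which growth signals by way of mTOR adjust their translation.

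Start sites were compared with the RefSeq promoter table (GRCm38.p6), which held 66 of the 86 members. A TOP-like run was searched on the sense strand as a C followed by at least 4 further pyrimidines, beginning no more than 10 bases from the annotated start. Such a run was found in 40 of the 66 members (60.6%), and in 9297 of all 27025 genes of that table (34.4%). It was present in 24 of 40 large subunit members and 16 of 26 small subunit members. The windows below run from 10 bases before the start through the first 20 bases of the transcript, 5′ to 3′, with the longest run that meets this rule in capitals; shorter ones stay in lower case. They are shown because these genes carry the lowest p-values or the highest levels of the set or, for Rps27rt, duplicate another member, and the last 2 hold no run that meets the rule.
Rpl15: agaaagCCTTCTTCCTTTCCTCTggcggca
Rps15a: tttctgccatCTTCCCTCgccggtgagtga
Rps27: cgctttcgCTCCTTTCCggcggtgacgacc
Rps27rt: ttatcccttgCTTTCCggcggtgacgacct
Rps7: cggtttccacccacctaCTTCCgctgtccc
Rpl39: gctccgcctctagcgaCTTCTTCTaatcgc
Rplp0: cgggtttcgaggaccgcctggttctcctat
Rpl5: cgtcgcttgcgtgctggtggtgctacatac

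On GRCm38 these windows lie at chr14:18270967-18270996 for Rpl15, chr7:118116128-118116157 for Rps15a, chr3:90213629-90213658 for Rps27 and chr9:114982720-114982749 for Rps27rt, all on the minus strand. Those of Rps7 at chr12:28635934-28635963 and Rpl39 at chrX:37085203-37085232 are also on the minus strand. Those of Rplp0 at chr5:115559457-115559486 and Rpl5 at chr5:107900518-107900547 are on the plus strand. A match describes letters only, and no match means only that no run met this rule; in Rplp0 a run of the same kind begins farther than 10 bases from the start.

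Ribosomal protein messages took a smaller share of the reads in every mutant library than in any wildtype library. They made up 7.59%, 6.56% and 7.12% of all counts in wildtype 1, 2 and 3. In mutants 1 to 6 the share was 5.42%, 5.55%, 4.87%, 3.87%, 5.37% and 4.96%. The means were 7.09% ± 0.515 (SD, n = 3) and 5.01% ± 0.617 (SD, n = 6), and the groups did not overlap. Mutant 4 lay lowest, and it held the lowest level of 81 of the tested members. Wildtype 1 lay highest and held the highest level of 61 of them. In bulk tissue, less of this RNA per cell and fewer cells rich in it cannot be told apart.

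The shares of both subunits were lower, and the ratio between them overlapped between the genotypes. Large subunit messages took 4.29%, 3.69% and 4.1% of counts in wildtype 1 to 3, with a lowest, median and highest mutant share of 2.22%, 2.97% and 3.24%. Small subunit messages took 3.3%, 2.86% and 3.02% in the wildtypes, with 1.65%, 2.16% and 2.37% in the mutants. The ratio of large to small subunit counts was 1.32 ± 0.0363 (SD, n = 3) in the wildtypes and 1.36 ± 0.0409 (SD, n = 6) in the mutants. Its values ran from 1.29 to 1.36 against 1.29 to 1.4.

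**Figure D1:**
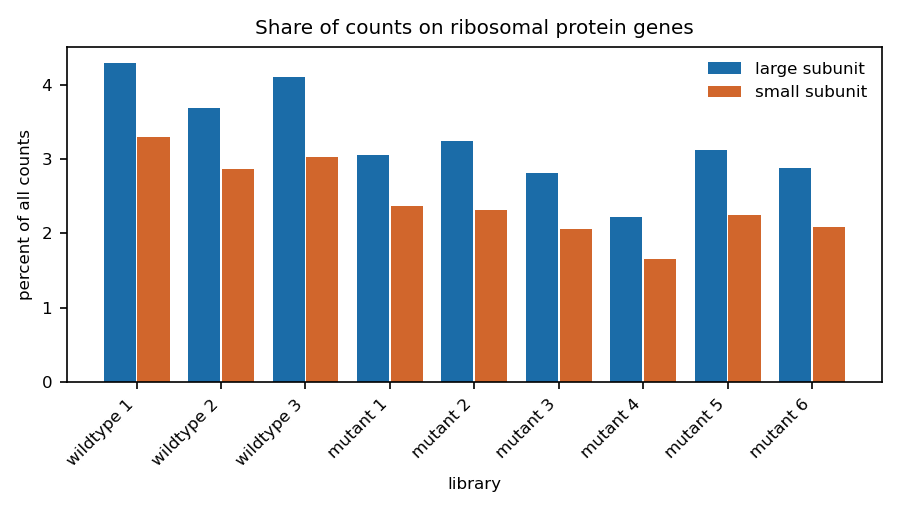
Percent of all counts (vertical axis) on the 52 large subunit and 34 small subunit rows in each of the 9 libraries (horizontal axis), 1 bar per library and subunit. The highest mutant bar for the large subunit, 3.24%, lies below the lowest wildtype bar, 3.69%, and for the small subunit 2.37% lies below 2.86%.

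Of the 86 rows, 84 had enough reads to be tested with edgeR's quasi-likelihood test over all 15825 genes, and 65 were lower in the mutants at an adjusted p under 0.05 (Benjamini-Hochberg). That is 77.4% of the tested members, where 9.47% of all tested genes were lower. None was higher (0 by edgeR, also 0 at an unadjusted p under 0.05, and 0 by DESeq2 and by limma-voom), where 9.7% of all tested genes were higher. A log2 fold change below 0 was fitted for 83 of the 84. The median over members was -0.48, with quartiles of -0.61 and -0.37, where all tested genes had a median of 0 and quartiles of -0.24 and 0.23. In 57 members each mutant value lay below each wildtype value, as it did in 11.2% of all tested genes, and in 0 members did each lie above, as in 10.8% of all tested genes. Rpl10l, a testis-expressed duplicate in mammals, had 0 counts in every library. Rpl3l, known from skeletal and heart muscle, had 7 and 5 counts in mutants 1 and 2 and 0 in the others, and neither was tested.

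Among large subunit genes 37 of 50 tested were lower (74%), with a median log2 fold change of -0.47. Among small subunit genes 28 of 34 were lower (82.4%), with a median of -0.49. With only the 77 genes that encode a subunit protein and are no duplicate, 59 were lower, with a median of -0.47. Between the genes past the test the fitted log2 change ran from -0.24 (Rpl7l1, SE 0.0744) to -1.06 (Rpl22l1, SE 0.216). Whether the change truly differed between genes was not tested.

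**Figure D2:**
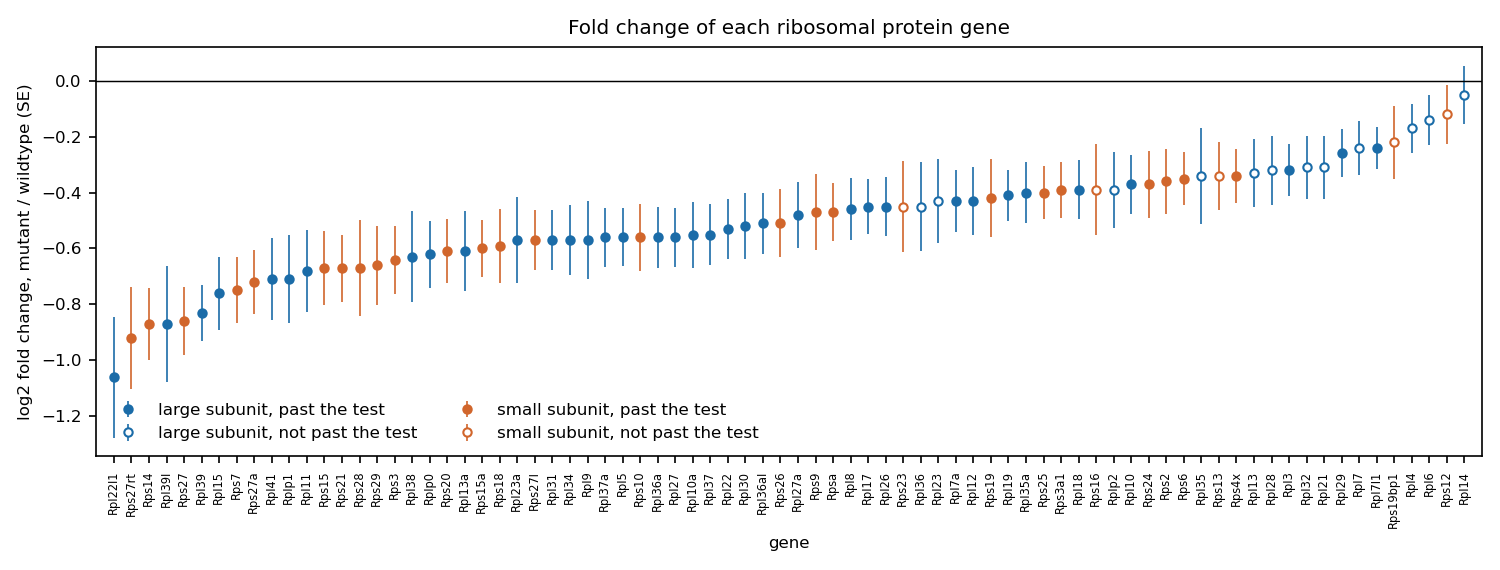
Fitted log2 fold change of mutant over wildtype (vertical axis, bars ± 1 SE) for 78 tested members, sorted along the horizontal axis, with filled points for genes past the test. Points run from -1.06 for Rpl22l1 to -0.05 for Rpl14, and both subunits are spread along the whole order; 6 tested members are not drawn, Rpl24 among them for its 12 counts or fewer per library.

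The count of members past the test rested on wildtype 1 more than on any other library. Without wildtype 1, 21 members were lower, the median was -0.39 and 235 of all tested genes (1.45%) were lower, and 44 of the 65 lost their call. Without wildtype 3, 50 members and 5.07% of all tested genes were lower, and 15 of the 65 lost their call. Leaving out any other single library gave 59 to 71 members. A total of 20 members kept their call whichever library was left out: Rpl5, Rpl15, Rpl22l1, Rpl27, Rpl31, Rpl36a, Rpl37, Rpl37a, Rpl39, Rplp0, Rps3, Rps7, Rps14, Rps15a, Rps20, Rps21, Rps27, Rps27a, Rps27l and Rps27rt.

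Libraries also differed in Gm42418, a row that collects reads of ribosomal RNA. It took 4.11% to 6.91% of counts in wildtype 1 and in mutants 1, 3, 4, 5 and 6, and 0.0663% to 0.0708% in wildtypes 2 and 3 and mutant 2. Fits without wildtype 1 thus keep only wildtypes low in this row, against mutants that are all high but mutant 2. Genotype and this split can hardly be told apart in those fits. Within the first set (1 wildtype against 5 mutants) the members' median was -0.65 and 45 were lower, and within the second (2 against 1) it was -0.27 and 13 were lower, where 3.93% and 0.9% of all tested genes were. In each of these fits the group with a single library has no spread of its own and is assumed to vary like the other group. With the split as a term of the fit 52 members were lower and the median was -0.49, where 5.93% of all tested genes were lower. With the reads of Gm42418 and Lars2 (a gene that holds like sequence) taken out of the totals, members took 6.56% to 7.97% of counts in the wildtypes and 4.18% to 5.72% in the mutants, again without overlap.

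Total counts ran from 25995340 to 35306935 per library. Markers of the dissected tissue were present: those of cornea stroma summed to 21224 to 27082 CPM (counts scaled to a common library size) in the wildtypes and 15931 to 27018 CPM in the mutants, with 4 of 7 lower. Surface epithelium (1 of 7 higher), pigmented iris and ciliary body (0 of 7 called) and corneal endothelium with drainage tissue (2 of 7 higher) were at 6890.5 to 8241, 13797 to 16178 and 1806 to 2424 CPM. Calls in these short marker lists are read against the 9.47% of all tested genes that were lower and the 9.7% that were higher. Lens markers summed to 8.61 CPM at most, with Crybb2, Cryga and Lim2 at 0 in every library. Retina markers summed to 112 CPM at most and skeletal muscle markers to 12.1 CPM at most. Erythroid markers moved with genotype, at 534 to 939.8 CPM in the wildtypes and 1797 to 8788 CPM in the mutants (4 of 8 past the test, all higher), and so did macrophage markers, at 226 to 241 and 343 to 481 CPM (4 of 9 higher). Mutant 4, lowest in ribosomal protein messages, held 1887 CPM of erythroid markers, while mutant 1 held 8788 CPM, and the part of these cells in the result was not tested. Cycling cell markers summed to 494 to 534 CPM in the wildtypes and 369 to 608 CPM in the mutants, with 0 of 10 called.

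Within a genotype the members moved together from library to library. After the mean of each group was removed, the median pairwise Pearson r of log2 CPM over the 9 libraries was 0.73, and 97.9% of the 3486 pairs lay above 0. It was 0.77 between large subunit genes, 0.69 between small subunit genes and 0.72 across subunits. The members share these libraries and their depth, and no other genes were set beside them, so this is a description. Around each gene's mean, the median member stood at 0.47, 0.18 and 0.32 log2 units in wildtype 1 to 3. In mutants 1 to 6 it stood at -0.04, -0.01, -0.2, -0.52, -0.09 and -0.14, so mutants 1 and 2 were nearest to wildtype 2.

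**Figure D3:**
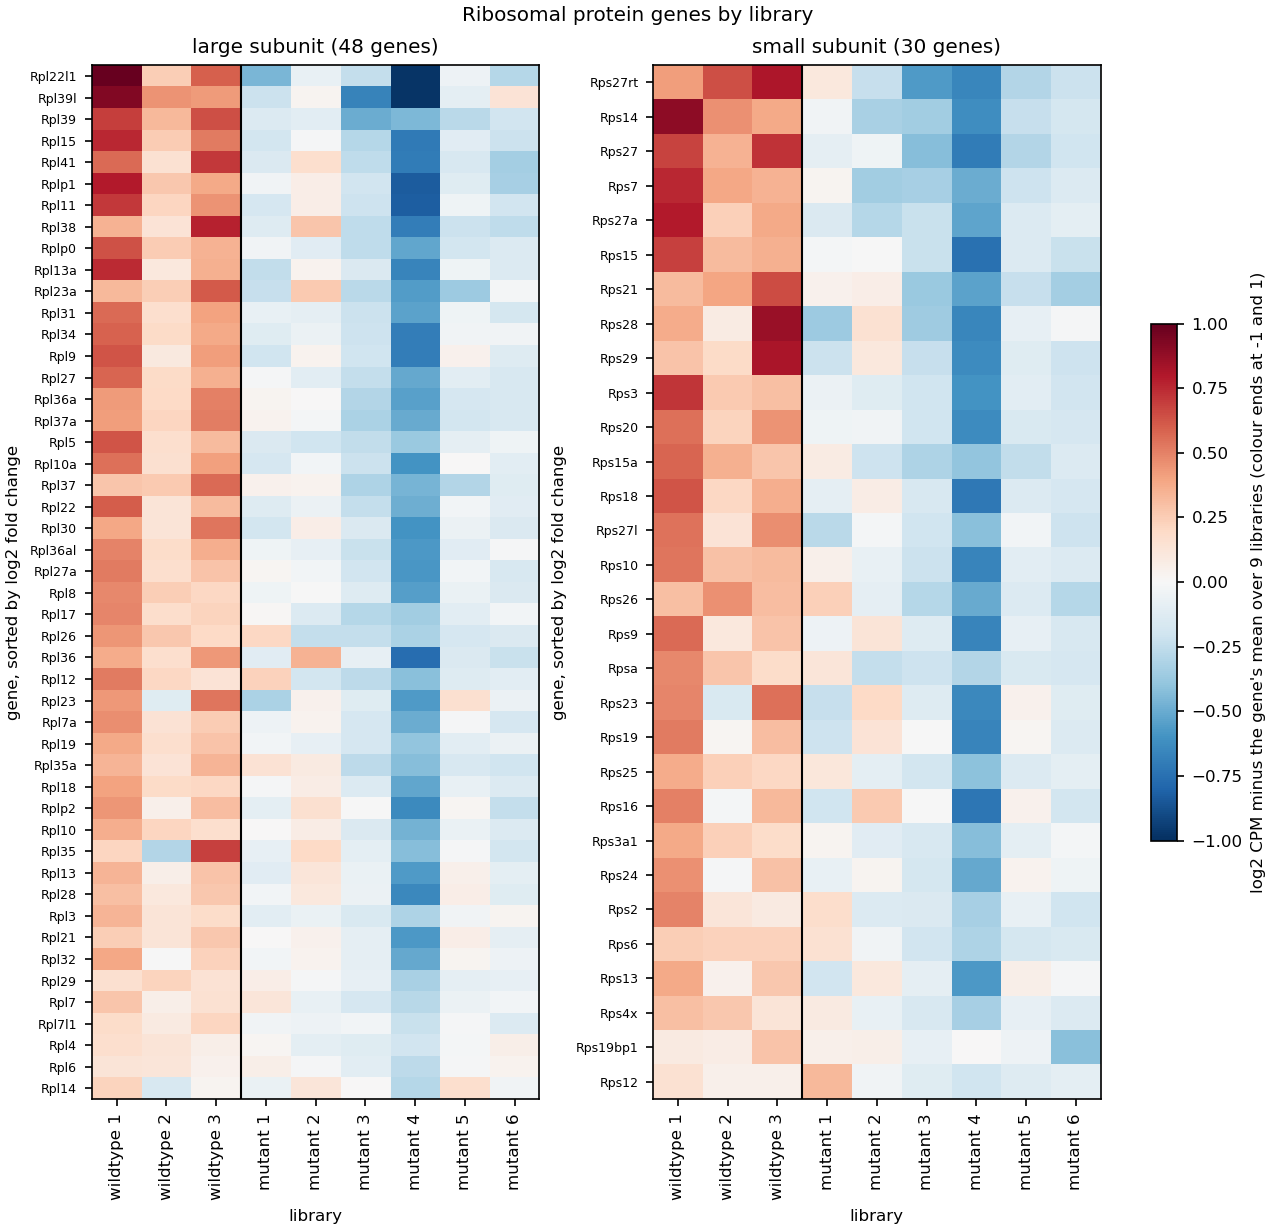
Level of each of 48 large subunit and 30 small subunit genes (rows, sorted by fold change) in each library (columns), as log2 CPM minus the gene's mean over the 9 libraries (6 tested members are not drawn, Rpl24 among them for its low counts). Nearly all rows are red in the wildtypes, most strongly in wildtype 1, and blue in mutant 4, while mutants 1 and 2 are close to 0 for many genes, with medians of -0.04 and -0.01.

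The stalk of the large subunit, to which the elongation factors bind, is made of Rplp0, Rplp1 and Rplp2. Rplp0 (ENSMUSG00000067274, chr5:115559467-115563727) was at 5532, 4235 and 4506 CPM in wildtype 1 to 3, with CPM on the edgeR scale of TMM-adjusted library sizes. The mutants ran from 2482 over a median of 3183 to 3455 CPM, all below the wildtypes. Its mean fell from 4758 ± 684 to 3092 ± 339 CPM (SD, n = 3 and 6), a log2 fold change of -0.62 ± 0.12 (SE; edgeR, adjusted p = 0.00375). Per kilobase of principal transcript this was 3504 ± 504 against 2277 ± 249.8 CPM (SD), the highest mean of all members in both groups, though in the wildtypes Rps14 and Rplp1, at 3459.9 ± 696 and 3334 ± 659.7 CPM per kilobase, were within its spread. Rplp1 was at 2039, 1423 and 1529 CPM in the wildtypes and at 661, 1058 and 1234 CPM (lowest, median, highest) in the mutants, again without overlap. It fell by 0.71 on the log2 scale (edgeR, adjusted p = 0.00723), though without wildtype 1 the change was -0.54 with an adjusted p of 0.0838. Rplp2 was at 619, 473 and 564 CPM in the wildtypes and at 293 to 509 CPM in the mutants, so its groups overlapped; its log2 fold change of -0.39 missed the threshold (edgeR, adjusted p = 0.0546).

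Rpl5 and Rpl11 join 5S ribosomal RNA in a particle that is built into the large subunit and, when free, binds Mdm2. Rpl5 (ENSMUSG00000058558) was at 1664, 1209.7 and 1339 CPM in wildtype 1 to 3 and at 831, 956 and 1043 CPM (lowest, median, highest) in the mutants. No mutant reached a wildtype value, and Rpl5 fell by 0.56 ± 0.104 (log2, SE; edgeR, adjusted p = 0.00315). Rpl11 fell by 0.68, from 765 ± 130.3 to 479 ± 89.9 CPM (SD, n = 3 and 6; edgeR, adjusted p = 0.00681); without wildtype 1 it was -0.54 with an adjusted p of 0.0771.

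The lowest p among all members belonged to Rpl39, a very small protein at the exit of the peptide tunnel. Rpl39 (ENSMUSG00000079641, chrX:37082520-37085402) was at 348, 269 and 336 CPM in the wildtypes. Mutants ran from 152 over a median of 183 to 199.8 CPM, far below the wildtypes. Its mean of 318 ± 42.3 fell to 178 ± 19.9 CPM (SD, n = 3 and 6), which is 1.78-fold lower, with a log2 fold change of -0.83 ± 0.0998 (SE; edgeR, adjusted p = 0.00016). Rpl39 and its autosomal duplicate Rpl39l encode nearly the same protein, and Rpl39l is best known from the testis. Rpl39l was far scarcer, at 18.8, 13.5 and 13.3 CPM in the wildtypes and 5.03 to 10.9 CPM in the mutants. It fell by 0.87 ± 0.207 (log2, SE; edgeR, adjusted p = 0.0102), a call that ended without wildtype 1 (-0.69, adjusted p = 0.108).

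Rpl15, a structural protein of the large subunit, gave the next lowest p of its subunit. Rpl15 (ENSMUSG00000012405, chr14:18267823-18271391) was at 1449, 1024 and 1231 CPM in the wildtypes. In the mutants the lowest, median and highest values were 527, 748 and 852 CPM, so the groups were apart. It fell 1.69-fold, by 0.76 ± 0.13 on the log2 scale (SE; edgeR, adjusted p = 0.0021). Rpl27, Rpl31 and Rpl37a, further proteins of the large subunit, changed by nearly the same amount as each other. Rpl27 fell from 609.6 ± 84.9 to 413 ± 47.3 CPM (SD), a log2 change of -0.56 (edgeR, adjusted p = 0.00337). Rpl31 fell from 634 ± 85.7 to 428 ± 50.4 CPM, a log2 change of -0.57 (edgeR, adjusted p = 0.00348). Rpl37a fell from 484 ± 50.3 to 327 ± 43.6 CPM, a log2 change of -0.56 (edgeR, adjusted p = 0.00337). The wildtype and mutant values of these genes did not overlap.

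Rpl22 restrains the expression of its duplicate Rpl22l1, whose product can take its place on the ribosome. Rpl22l1 (ENSMUSG00000039221, chr3:28805436-28807424) had the lowest fold change of all members. It was at 226, 114 and 145 CPM in wildtype 1 to 3 and at 48.6, 80 and 92.8 CPM (lowest, median, highest) in the mutants. The wildtypes themselves differed, yet no mutant reached the lowest of them. It fell 2.09-fold, by 1.06 ± 0.216 on the log2 scale (SE; edgeR, adjusted p = 0.00783), and by 0.74 without wildtype 1 (adjusted p = 0.0488). Rpl22 was at 512, 367 and 419 CPM in the wildtypes and at 239 to 330.3 CPM in the mutants. It fell by 0.53 ± 0.108 (log2, SE; edgeR, adjusted p = 0.00471), and by 0.39 without wildtype 1 with an adjusted p of 0.0601. Both genes of this pair were thus lower in the mutants.

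Other duplicates could be set beside the gene they resemble. X-linked Rpl36a was at 362, 309 and 381 CPM in the wildtypes and 185 to 274 CPM in the mutants, and it fell by 0.56 (log2; edgeR, adjusted p = 0.00377). Its intronless copy Rpl36al was at 121, 97.5 and 110.1 CPM against 57.6 to 84.9 CPM and fell by 0.51 (adjusted p = 0.00546, and 0.0603 without wildtype 1). Neither gene's groups overlapped.
Rpl7, a protein of the large subunit, was at 1603, 1376 and 1472 CPM in the wildtypes and 1094 to 1439 CPM in the mutants, with overlap and a log2 fold change of -0.24 (edgeR, adjusted p = 0.0926). Rpl7l1, which acts in the making of the subunit, was at 114, 107 and 117 CPM against 86 to 99.6 CPM. It also stood at -0.24, but with a smaller spread (SE 0.0744) it passed the test (edgeR, adjusted p = 0.0311), a call that ended without wildtype 1 (0.126), wildtype 3 or mutant 6.
Rpl3, which reaches toward the peptidyl transferase centre, fell by 0.32, from 1419 to 1136 CPM (edgeR, adjusted p = 0.0242, and 0.156 without wildtype 1), and the call also ended without wildtype 3 or mutant 3. Rpl10, X-linked and added late in subunit maturation, fell by 0.37, from 1004 to 778 CPM (adjusted p = 0.0232, and 0.145 without wildtype 1).

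A group of abundant large subunit genes did not pass the test. Rpl13 was at 1317, 1085 and 1266 CPM in the wildtypes and 701, 982 and 1129 CPM (lowest, median, highest) in the mutants, with overlap. Its log2 fold change was -0.33 (edgeR, adjusted p = 0.0687), and per kilobase of principal transcript it ranked among the 3 highest of its subunit, at 1568 against 1246 CPM. Rpl4 stood at -0.17 (adjusted p = 0.175), Rpl6 at -0.14 (0.285) and Rpl14 at -0.05 (0.787), and the groups of each overlapped. Rpl35 was at 22, 15.5 and 30.5 CPM in the wildtypes, which themselves spread over the mutants' 14.1 to 21.8 CPM, with a log2 fold change of -0.34 (adjusted p = 0.172). Rpl24 held between 0 and 12 counts per library, so its log2 fold change of 0.02, the single value above 0, rests on few reads. The span of Rpl24 overlaps the annotated gene Gm28037, and that of Rpl35 overlaps Arpc5l and Wdr38. No source used here states how reads in overlapping genes were counted.

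Rpl41, the shortest ribosomal protein, was at 867, 651 and 957 CPM in the wildtypes and 361 to 659 CPM in the mutants. It fell by 0.71 (log2; edgeR, adjusted p = 0.00527), although mutant 2 lay above wildtype 2, and without wildtype 1 the adjusted p was 0.0527. Rpl18, another structural protein, fell by 0.39 (adjusted p = 0.0188, and 0.136 without wildtype 1). Rpl23a, near the tunnel exit, was low here, at 22.8 ± 3.14 CPM, and fell to 15.3 ± 3.17 CPM (SD, log2 -0.57, edgeR, adjusted p = 0.0185). This call ended without wildtype 1 or wildtype 3. The span of Rpl23a overlaps the annotated gene Tlcd1, and how such reads were counted is not stated. The other 17 large subunit genes past the test had log2 fold changes between -0.63 (Rpl38) and -0.26 (Rpl29), 1.54-fold to 1.2-fold lower. They included Rpl38, Rpl13a, Rpl34, Rpl9, Rpl10a, Rpl37, Rpl30, Rpl27a, Rpl8, Rpl17, Rpl26, Rpl12, Rpl7a, Rpl19, Rpl35a and Rpl29. The other 5 that were not past it, Rpl36, Rpl23, Rpl28, Rpl21 and Rpl32, had log2 fold changes between -0.45 and -0.31 and adjusted p-values from 0.0533 to 0.0801.

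On the small subunit side, Rps14 and Rps27 changed most among the abundant genes. Rps14, at the platform where messenger RNA leaves, was at 3342, 2469 and 2336 CPM in wildtype 1 to 3. In the mutants the lowest, median and highest values were 1172, 1489 and 1754 CPM, so the groups were far apart. Its mean fell from 2716 ± 547 to 1485 ± 196 CPM (SD, n = 3 and 6), 1.83-fold lower, with a log2 fold change of -0.87 ± 0.128 (SE; edgeR, adjusted p = 0.000897). Per kilobase of principal transcript it was the most abundant small subunit gene of the wildtypes, at 3459.9 against 1892 CPM.

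Rps27 encodes a zinc finger protein of the small subunit and has the close duplicates Rps27l, known as a p53 target, and Rps27rt, a retrogene on chromosome 9. Rps27 (ENSMUSG00000090733, chr3:90212522-90213651) was at 611, 487 and 631 CPM in the wildtypes and at 236, 323 and 372 CPM (lowest, median, highest) in the mutants. It fell 1.82-fold, by 0.86 ± 0.122 (log2, SE; edgeR, adjusted p = 0.000735), with no overlap. Rps27l was at 81.3, 61.1 and 76.9 CPM against 41.7 to 54.9 CPM and fell by 0.57 ± 0.106 (edgeR, adjusted p = 0.00308).
Rps27rt was at 7.19, 8.4 and 9.42 CPM against 3.42 to 5.78 CPM and fell by 0.92 ± 0.181 (edgeR, adjusted p = 0.00411). The start windows of Rps27 and Rps27rt printed above share the stretch that follows the run, and reads of such copies may be assigned to either gene, since no source used here states how reads with several matches were treated.

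Rps7 and Rpsa are among the most abundant small subunit messages. Rps7 (ENSMUSG00000061477, chr12:28630854-28635953) was at 2430.3, 1879 and 1829 CPM in the wildtypes and at 1019.6, 1193 and 1465 CPM (lowest, median, highest) in the mutants. It fell 1.68-fold, by 0.75 ± 0.118 (log2, SE; edgeR, adjusted p = 0.00142), without overlap, and stood at 2145 against 1277 CPM per kilobase of principal transcript. Rpsa, also known as a laminin receptor, was at 2349, 2046 and 1912 CPM against 1373 to 1831 CPM. It fell by 0.47 ± 0.104 (edgeR, adjusted p = 0.00708, and 0.07 without wildtype 1). Rps27a, which is made as a fusion with ubiquitin, was at 1231, 834 and 920.3 CPM against 492, 624 and 663 CPM (lowest, median, highest) in the mutants. It fell by 0.72 ± 0.116 (edgeR, adjusted p = 0.00163), and its groups did not overlap.

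Rps15a (ENSMUSG00000008683, chr7:118104372-118116188) was at 914, 781 and 738 CPM in the wildtypes and at 464, 522 and 648 CPM (lowest, median, highest) in the mutants. It fell 1.52-fold, by 0.6 ± 0.102 (log2, SE; edgeR, adjusted p = 0.00203). Rps21, a small protein needed for maturation of the small subunit, was at 297, 315 and 376 CPM against 165, 197 and 249.9 CPM (lowest, median, highest). It fell by 0.67 ± 0.12 (edgeR, adjusted p = 0.00255). The groups of Rps15a and Rps21 were apart. Rps3, at the messenger RNA entry channel, fell from 1461 ± 264 to 937 ± 116 CPM (SD; log2 -0.64, edgeR, adjusted p = 0.00344). Rps20, a head protein, fell from 852 ± 98.3 to 559.8 ± 76.6 CPM (log2 -0.61, adjusted p = 0.00341).

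Rps6, the small subunit protein phosphorylated downstream of mTOR, was at 919, 906 and 908 CPM in the wildtypes, which hardly differed, and at 625 to 858 CPM in the mutants. It fell by 0.35 ± 0.0946 (log2, SE; edgeR, adjusted p = 0.0191), a call that ended without wildtype 1 (0.0902) or wildtype 3. Rps4x, which is X-linked, fell by 0.34 (adjusted p = 0.0206), a call that ended without wildtype 1 (0.113) or wildtype 2.
Rps2, the gene of a protein at the entry channel, was at 2383, 1835 and 1794 CPM against 1341, 1531 and 1901 CPM (lowest, median, highest). Mutant 1 thus lay above wildtypes 2 and 3, and the fall of 0.36 (edgeR, adjusted p = 0.0415) shrank to 0.22 without wildtype 1 (adjusted p = 0.307). Its call also ended without wildtype 3 or any of mutants 2 to 6.
Rps12 did not pass the test, at 818, 761 and 761 CPM against 641 to 919 CPM, with a log2 fold change of -0.12 (adjusted p = 0.457). Rps19bp1 was at 14.7, 14.5 and 16.8 CPM against 10.3 to 14.4 CPM, with a log2 fold change of -0.22 (adjusted p = 0.258). The other 14 small subunit genes past the test, among them Rps15, Rps28, Rps29, Rps18, Rps10, Rps26, Rps9, Rps19, Rps25, Rps3a1 and Rps24, had log2 fold changes between -0.67 and -0.37. Rps23, Rps16 and Rps13 were not past it, with log2 fold changes of -0.45, -0.39 and -0.34 and adjusted p-values of 0.0661, 0.105 and 0.0596 (edgeR).

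Some sets within the members were described by count. Of 18 members whose human genes are mutated in Diamond-Blackfan anaemia, a failure of red cell formation, 17 were lower, with a median log2 fold change of -0.56, and Rpl35 was not called; this set was drawn up after the values had been seen, and 65 of all 84 tested members were lower. Without wildtype 1, 7 of the 18 were lower, and with the principal length trend removed 8. All 4 X-linked members (Rpl10, Rpl36a, Rpl39 and Rps4x) were lower, with a median of -0.46, and 2 of them were without wildtype 1. With the exon length trend removed 2 of these 4 were lower, and with the principal length trend removed 1, with a median of -0.12. Of the members with a TOP-like run at the annotated start 31 of 38 tested were lower, with a median of -0.52. Of those without it 19 of 26 were lower, with a median of -0.46. Without wildtype 1 these counts were 11 and 6, and with the principal length trend removed 12 and 9. Rplp0 and Rpl5, printed above without a run, fell by 0.62 and 0.56, and the 6 genes printed with a run fell by 0.6 to 0.92. The printed genes were mostly picked by p-value or level, so their falls cannot compare genes with and without a run.

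Fold changes depended on transcript length across the whole table, and members are short. Among tested genes that are no members, those with a principal transcript under 1000 bases had a median log2 fold change of -0.38, and 31.9% of these 784 genes were lower. The median was -0.27 at 1000 to 1500 bases, -0.16 at 1500 to 2000, -0.06 at 2000 to 3000, 0.08 at 3000 to 5000 and 0.26 over 5000 bases, where 0.971% of 2883 genes were lower. Members had a median of -0.55 in the shortest class (54 genes), -0.43 at 1000 to 1500 bases (18), -0.42 at 1500 to 2000 (6) and -0.46 at 2000 to 3000 (4). Rps20 and Rps15a, the 2 with the longest annotated principal transcripts, stood at -0.61 and -0.6. Length here is that of a gene's longest annotated principal transcript, and which transcript was present in this tissue was not examined. Over 14591 genes, which are not independent, the log2 fold change and log10 length had a Pearson r of 0.39 and a Spearman rho of 0.52, and over the 84 members 0.27 and 0.35.

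**Figure D4:**
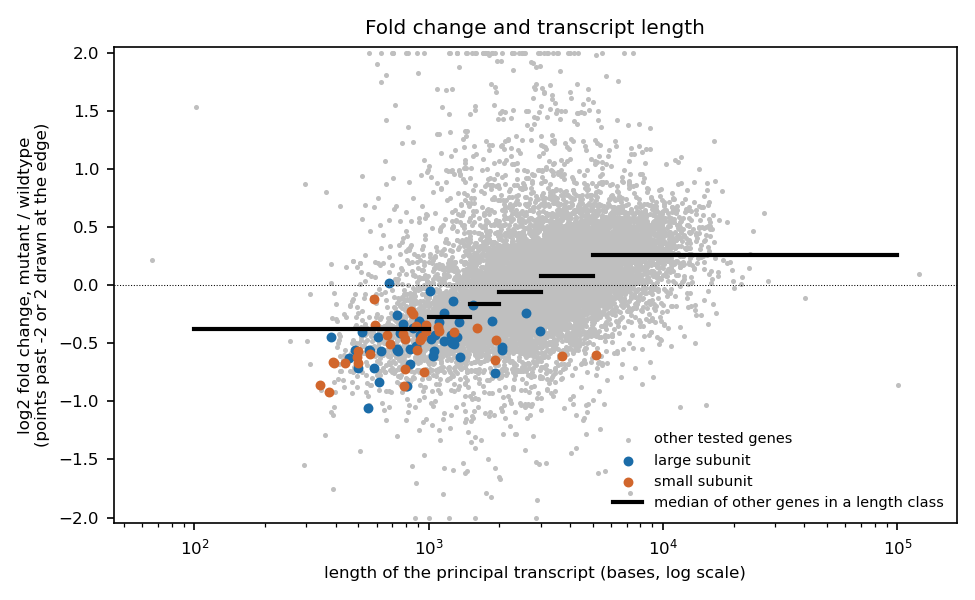
Log2 fold change of mutant over wildtype (vertical axis) against the length of the annotated principal transcript in bases (log horizontal axis) for members (coloured by subunit) and all other tested genes (grey), with bars for the median of the other genes in each length class. Most members lie under 1000 bases and below the bar at -0.38, with their own median at -0.55.

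Alternatives that removed from each library a smooth trend on length were therefore run. With total exon length 49 members were lower, with a median of -0.36, where 7.89% of all tested genes were lower. With the length of the principal transcript, an alternative chosen after seeing the data, 26 were lower and the median was -0.21, where 6.09% of all tested genes were lower. In that fit Rpl14 was higher (log2 0.24, edgeR, adjusted p = 0.0281), where it stood at -0.05 before. Rps15a stood at -0.78 (adjusted p = 0.000535), Rpl15 at -0.66 (0.000921), Rps20 at -0.68 (0.00171), Rps27 at -0.48 (0.00097) and Rpl39 at -0.46 (0.0015). Others among the 26 were Rpl5, Rpl11, Rpl13a, Rpl18, Rpl22, Rpl22l1, Rpl31, Rpl36al, Rpl41, Rpl7l1, Rplp0, Rplp1, Rps3, Rps7, Rps14, Rps15, Rps21, Rps27a, Rps27rt and Rpsa. The principal length fits rest on annotated lengths, such as 5179 bases for Rps15a and 3706 for Rps20, not on lengths measured in this tissue. The part of transcript length in the members' result was not tested beyond these fits.

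Genes whose products work with the ribosome were set beside the members, from lists drawn up with earlier results of these data known. Rack1, a scaffold on the small subunit, fell from 2418 ± 446 to 1510.2 ± 157 CPM (SD, n = 3 and 6; log2 -0.68, edgeR, adjusted p = 0.0021). Fau, a fusion of a ubiquitin-like protein with a small subunit protein, went from 546 to 461 CPM without passing (adjusted p = 0.109).
Of 17 elongation factors and other TOP messages 8 were lower (47.1%), where 9.47% of all tested genes were. None was higher by edgeR (0 also at an unadjusted p under 0.05 and by DESeq2, 1 by limma-voom), where 9.7% of all tested genes were. The median was -0.21. Those lower included Eef1b2, a subunit of the exchange factor for elongation factor 1 (log2 -0.75, edgeR, adjusted p = 0.00201), Eif3h (-0.7, 0.000769), Eif3e (-0.35, 0.00993) and Naca, which binds nascent chains (-0.41, 0.00505). Without wildtype 1, 2 of the 17 were lower, and with the exon or principal length trend removed 5 and 3. Of 7 tested transcripts that host small nucleolar RNAs in their introns 4 were lower (57.1%), with a median of -0.47. These were Rack1, already given above, Eif4a2 (-0.47, edgeR, adjusted p = 0.00945), Gas5 (-0.54, 0.0163) and Taf1d (-0.47, 0.0281). Without wildtype 1, 1 of the 7 was lower, where 1.45% of all tested genes were.

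Lists of genes that start translation or build ribosomes are read against the 9.47% of all tested genes that were lower and the 9.7% that were higher. Of 29 initiation factors 6 were lower and 3 higher, with a median of -0.18; Eif3k (-0.48, adjusted p = 0.00253), Eif3i (-0.46, 0.00428), Eif5a (-0.4, 0.0124) and the cap-binding Eif4e (-0.34, 0.0127) had the lowest p. Without wildtype 1, 1 was lower and 0 higher. Of 40 ribosome biogenesis factors 3 were lower and 2 higher, with a median of -0.09, among them Nop10 of the box H/ACA particle (-0.55, adjusted p = 0.0075), Nip7 (-0.44, 0.0155), the helicase Ddx21 (0.26, 0.0276) and Utp20 (0.48, 0.0451). Of 12 genes of RNA polymerase I, which makes ribosomal RNA, 3 were lower and 1 higher, with a median of -0.03: Polr1d (-0.47, adjusted p = 0.00945), Polr1c (-0.46, 0.013) and Znrd1 (-0.39, 0.0494) against the largest subunit Polr1a (0.43, 0.00559). Without wildtype 1 no gene of these last 2 lists passed the test in edgeR. With the principal length trend removed no gene of these 3 lists was higher, and 3, 6 and 1 were lower; with the exon length trend removed none was higher either, and 8, 5 and 2 were lower.

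Among 18 genes of Myc and mTOR control 1 was lower and 4 higher, with a median of 0, where 9.47% and 9.7% of all tested genes were. Mtor itself rose (log2 0.37, edgeR, adjusted p = 0.0139), as did its partner Rptor (0.31, 0.0241) and the cap-binding inhibitor Eif4ebp2 (0.39, 0.0277). Myc, a driver of ribosome gene transcription, rose from 10.3 to 14.9 CPM (0.54, adjusted p = 0.0406). Without wildtype 1 none of the 18 passed, and 1 was higher with either length trend removed or with the Gm42418 split as a term. Of 14 p53 targets 2 were lower and 4 higher, with a median of -0.02: Trp53inp1 (0.44, adjusted p = 0.00431), the ubiquitin ligase Mdm2 (0.39, 0.00967) and Zmat3 (0.35, 0.0255) rose, and Phlda3 (-0.35, 0.0287) fell. Without wildtype 1, 0 were lower and 1 was higher; with the exon length trend removed it was 0 and 3, and with the principal length trend removed 0 and 2.

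Mitochondrial ribosomal proteins, encoded in the nucleus by other genes for a different ribosome, were lower as well. Of 76 tested 35 were lower (46.1%), where 9.47% of all tested genes were. None was higher (0 by edgeR, also 0 at an unadjusted p under 0.05, by DESeq2 and by limma-voom), where 9.7% of all tested genes were. The median was -0.33, and the cytosolic set had 77.4% lower and a median of -0.48. Mrpl52 (log2 -0.61, adjusted p = 0.00253), Mrpl41 (-0.65, 0.00339), Mrps24 (-0.73, 0.00373) and Mrps14 (-0.58, 0.00464) had the lowest p. Without wildtype 1, 4 were lower, and with the principal length trend removed 21 were lower, with a median of -0.18, near the -0.21 of the cytosolic members in the same fit. Rows of ribosomal protein pseudogenes, which can catch reads of their parents, took 0.0186% ± 0.000886 of counts in the wildtypes and 0.0137% ± 0.00136 in the mutants (SD, n = 3 and 6). Of 56 tested such rows 7 were lower (12.5%), near the 9.47% of all tested genes that were. None was higher (0 by edgeR, DESeq2 and limma-voom, 1 at an unadjusted p under 0.05), and the median was -0.38. Without wildtype 1, 1 was lower. With the exon length trend removed 1 was lower and 1 higher, with a median of -0.06.

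**Figure D5:**
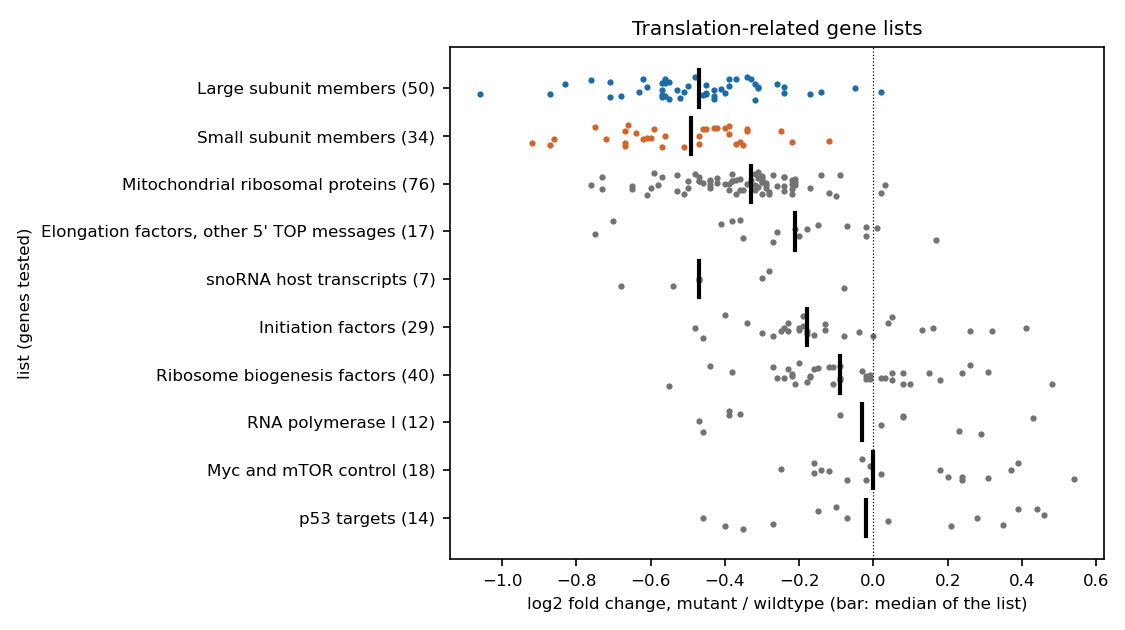
Log2 fold change of mutant over wildtype (horizontal axis) for each tested gene of the members and of the other lists (rows, number tested in brackets), with a bar at the median. The members' bars lie at -0.47 and -0.49 and that of mitochondrial ribosomal proteins at -0.33, while biogenesis factors, RNA polymerase I, Myc and mTOR control and p53 targets have bars between -0.09 and 0.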

How the data were processed

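Bulk RNA-seq values were deposited by the authors as raw read counts per Ensembl gene, with no normalization; 0 columns lacked a sample. The tools named, without roles, per the submitters' processing notes were HTSeq 0.6.1, STAR 2.6.1 and DESeq2 1.6.3, with GRCm38 (mm10) as the build. No source used here states the annotation release, the strand setting or the treatment of reads with several matches, so counts of overlapping genes and near-identical copies are uncertain; 29 of the 86 members overlap an annotated gene other than a small RNA. A GENCODE annotation of GRCm38 gave symbols for 34490 of 35275 identifiers.

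Counts were tested with edgeR 4.0.16 (R 4.3.3): TMM factors, the default low-count filter by group, a robust quasi-likelihood fit of genotype over all 9 libraries and Benjamini-Hochberg adjustment at 0.05 over 15825 genes. CPM use TMM library sizes, and CPM per kilobase divide by the length of the longest annotated principal transcript. Members and lists were chosen with earlier results of these data known, so no list was tested as a set. Values by library were given for up to 6 members per subunit with the lowest p, the 3 with the highest CPM per kilobase, duplicates and their parents, and Rps19bp1; other members were named with values afterwards, and up to 4 genes per other list. Some genes are counted in the totals but not reported here by name. The tool was tested on simulated counts of mutant against wildtype (15639 genes), with genes drawn independently and no length trend or Gm42418 split. It found 51% of simulated 1.5-fold changes and 81% of simulated 2-fold changes, and 6.38% of its calls fell on genes with no change. These rates hold for that setting only. In a second simulation, with a length trend of chosen size and no change (15620 genes), it called 685 genes, and 0 with the principal length trend removed. Alternatives used other scaling factors, DESeq2 1.42.0, limma-voom (limma 3.58.1), other filters and thresholds, length trends (mgcv 1.9.3), the Gm42418 split at 1% of counts, a replicate block and leaving out each library.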

Additional observations from a re-analysis of the deposited data

Results flagged for a closer look

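One value stood apart from the rest of its group. Rps19bp1 was at 10.3 CPM in mutant 6, with the nearest mutant at 13 CPM, so this gap made up 0.655 of the range of the 6 mutants, more than Dixon's critical value for a group of this size allows. It was the 1 such case among 33 groups checked, and chance flags about 1 in 20 groups.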

How the results depend on the processing

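The number of members lower in the mutants was 65 (37 large, 28 small subunit), with medians of -0.48, -0.47 and -0.49. Other scaling factors gave 63 to 66, DESeq2 75 of 83 tested and limma-voom 79, all with 0 higher; of all genes 12.1% were lower with DESeq2 and 14.8% with limma-voom, against 9.47%. At an adjusted p under 0.01 it was 40 (22 and 18), and in a test against a fold of 1.2 it was 16 (5 and 11). Of all tested genes 3.24% and 0.979% were lower in these. Leaving out each library gave 21 (without wildtype 1) to 71 members (without mutant 2), 10 to 41 large and 11 to 30 small subunit genes, with medians of -0.56 to -0.39, -0.55 to -0.38 and -0.58 to -0.42, and 0 higher each time.

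The following alternatives were chosen after seeing the data. With the principal transcript's length trend removed, 26 were lower (14 and 12), 1 was higher and each median was -0.21; fitted without members it was 30 (16 and 14), 1 and -0.22. With only libraries low in Gm42418 it was 13 (5 and 8), with medians of -0.27 for all and -0.25 for the large subunit. With only libraries high in Gm42418 it was 18 for the small subunit, with a median of -0.67. The cause of these shifts was not tested.

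The replicate numbers of the labels do not pair the samples: same-numbered wildtype and mutant deviations had r of 0.09, 0.03 and -0.1. With a replicate block 45 members were lower (27 and 18), with a median of -0.42, where 4.24% of all tested genes were lower. In this fit a mutant whose number no wildtype shares adds nothing to the genotype effect. The block fit thus compares only the same-numbered wildtype and mutant libraries, not all libraries.

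Rpl24 (0.02), with few reads, went to -0.02 with upper-quartile factors, -0.15 with limma-voom, -0.09 with the Gm42418 split as a term, to 0.51 without wildtype 1, to -0.54, -0.03 and -0.04 without wildtype 2, mutant 2 and mutant 3, and -0.69 in libraries high in Gm42418. Rpl7 changed to 0.01 and 0 with the principal length trend removed, fitted with and without members. Rps19bp1 changed to 0.11 and 0.1 there, and to 0.03 and 0.02 with the exon length trend. Rpl39, Rps14, Rps15a, Rps27, Rps27a and Rps7 kept their call in each of 28 alternatives. Rpl24, Rpl3l and Rpl10l had few or no reads, and why was not tested.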
